A study of Caenorhabditis elegans with 6 samples.

Results

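The lys genes of Caenorhabditis elegans, lys-1 to lys-10, encode lysozymes related to those of protists. They were taken by gene symbol from a table of 46904 gene identifiers, in which 10 of the 10 were found. The family was chosen by its symbols with its fold changes in these libraries already known, so its differences between control and treated worms are given as a description. Where its genes stood under the call rule used for all genes is part of that description and supports nothing. Wild-type N2 worms were grown on plates seeded with E. coli OP50 at 20 °C and were moved as young adults to fresh seeded plates that either lacked the drug (control worms) or contained 50 µM CGP37157 (CGP37157-treated worms). CGP37157 is a benzothiazepine that inhibits the mitochondrial Na+/Ca2+ exchanger. Worms were moved to new plates daily, whole-worm RNA was taken at day 5 of treatment, and there were 3 libraries per group. The labels do not say whether the libraries came from separate cultures, so that errors and p-values measure only the spread between these libraries.

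Lysozymes cut the peptidoglycan of bacterial cell walls. For a worm that eats bacteria they serve both digestion and defence, and several are made in the intestine. C. elegans has the lys family and a second family of invertebrate type, the ilys genes, which is treated here as the nearest comparison. Among the lys genes, lys-7 is known for its part in resistance to bacterial pathogens and as a gene that DAF-16/FOXO acts on, lys-8 as a target of the DBL-1/TGF-beta pathway and lys-1 as a gene induced by Serratia marcescens.

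The libraries held between 21122852 and 24551795 counts assigned to genes. The scaling factors of the trimmed mean of M-values (TMM) lay between 0.815 and 1.13, the lowest in control replicate 2. That library stood apart on the first principal component, at -59.0 against -11.6 and -7.09 for the other control libraries. The same component separated the groups, with the CGP37157 libraries at 18.2, 35.5 and 24.0. Values of lysozyme genes that rest on control replicate 2 are given below with and without it.

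The family as a whole was expressed at a like level in both groups. It held 0.301%, 0.358% and 0.443% of the counts in the control libraries and 0.418%, 0.359% and 0.466% in the CGP37157 libraries, so the groups overlapped. Nearly all of this came from a few genes. On the scale of library-scaled counts (CPM) divided by the exon length (CPM per kb), lys-7, lys-1, lys-8 and lys-2 together made up 98.8% of the family's mean level in control worms and 99.6% in CGP37157-treated worms, and lys-7 alone made up 54.3% and 55.4%.

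Mean levels in control worms spanned more than 3 orders of magnitude. The highest was lys-7 with 2217 CPM per kb (1364 to 2931 over the 3 control libraries). It was followed by lys-1 with 722 CPM per kb, lys-8 with 643 CPM per kb and lys-2 with 454 CPM per kb, of which lys-1 overlapped lys-8 and lys-8 overlapped lys-2 between libraries. Next came lys-4 at 41.9 CPM per kb, whose control libraries lay below every control library of lys-2 and above every one of lys-6. At the foot of the order, lys-6 (2.70 CPM per kb), lys-3 (1.78 CPM per kb), lys-5 (1.12 CPM per kb) and lys-10 (0.401 CPM per kb) each overlapped the next in the control libraries, and lys-9 had no count in any control library.

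**Figure D1:**
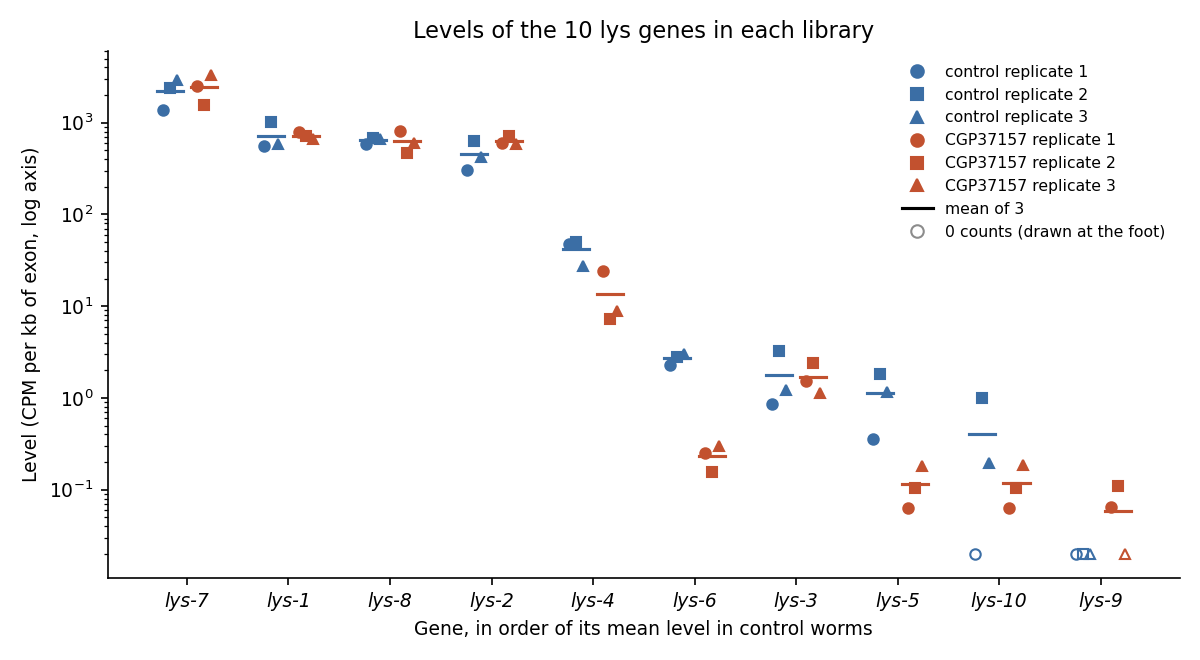
Levels of the 10 lys genes in each library, in CPM per kb of exon on a log axis; blue marks are control libraries, red marks are CGP37157 libraries, lines are means of 3, and open marks at the foot are counts of 0. The control and CGP37157 marks overlap for lys-7, lys-1, lys-8, lys-2, lys-3 and lys-10, whereas for lys-4, lys-5 and lys-6 every CGP37157 library lies below every control library.

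A gene was tested where it reached 1 CPM in at least 3 of the 6 libraries, and called where the Benjamini-Hochberg adjusted p of edgeR's quasi-likelihood test over the 12385 genes tested was under 0.05. Over all these genes, 0.234% were called lower in CGP37157-treated worms and 1.16% were called higher. Every CGP37157 library lay below every control library in 3.69% of them and above in 3.85%. Of the 10 lys genes, 7 passed the filter, 1 of these (lys-6) was called lower, 0 were called higher and 6 were not called. lys-5, lys-9 and lys-10 had too few counts to be tested. The median log2 fold change of the 7 was -0.04, beside -0.01 over all genes tested, and the values ran from -3.50 for lys-6 to 0.47 for lys-2. Since the choice of the family used this contrast, nothing is read from these shares. In whole-worm RNA, fewer cells of a type and less RNA per cell cannot be told apart.

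**Figure D2:**
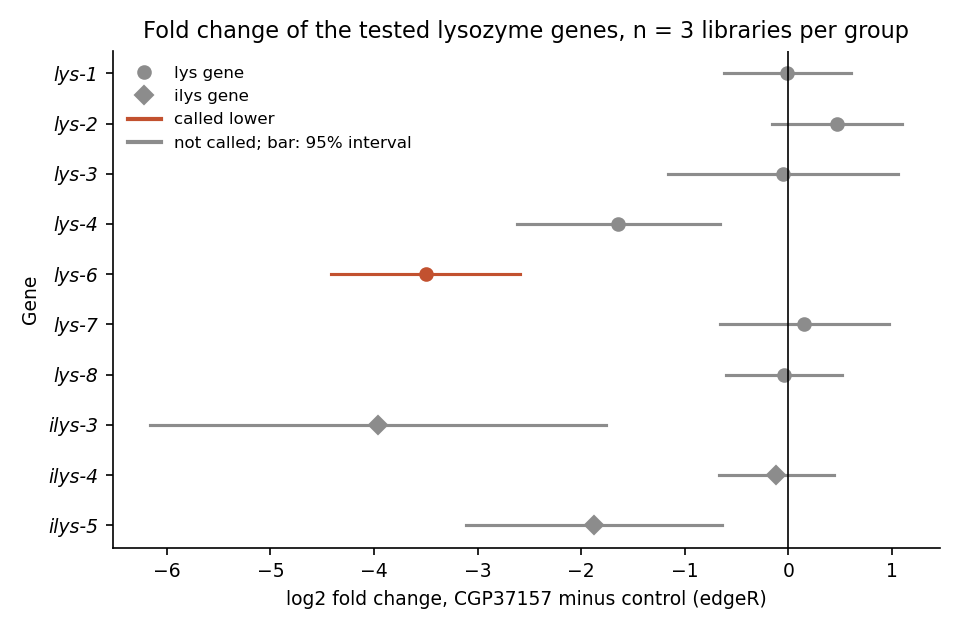
log2 fold change (CGP37157 minus control) of the 7 tested lys genes (circles) and the 3 tested ilys genes (diamonds), with 95% intervals from edgeR; red marks the gene called lower. The intervals of lys-4, lys-6, ilys-3 and ilys-5 lie below 0 before adjustment for the number of genes, while those of lys-1, lys-2, lys-3, lys-7, lys-8 and ilys-4 span 0.

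The low values in treated worms fell on the cluster of lys-4, lys-5 and lys-6. These 3 genes lie side by side on the minus strand of chromosome IV, at IV:11621429-11627947 (WBcel235, Ensembl release 115), a stretch of 6.52 kb with gaps of 1077 to 1327 bases between them. lys-6 (IV:11626910-11627947, 2 exons) had raw counts of 39, 34 and 47 in the control libraries and of 4, 3 and 5 in the CGP37157 libraries. This corresponds to 1.92 ± 0.261 CPM in control worms and 0.167 ± 0.0528 CPM in CGP37157-treated worms (SD, n = 3), and the groups did not overlap. Its log2 fold change was -3.50 (SE 0.41), 11.3-fold lower. It passed the filter only through the control libraries, 3 of which reached 1 CPM against 0 of the CGP37157 libraries, so it could be tested only because it was high in control worms. Leaving out any 1 library gave lys-6 a log2 fold change between -3.70 and -3.26.

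lys-4 (IV:11621429-11623174, 2 exons) was the most abundant gene of this cluster. Its raw counts were 899, 685 and 473 in the control libraries and 434, 155 and 163 in the CGP37157 libraries. Control worms had 33.0 ± 9.95 CPM of lys-4 and treated worms 10.6 ± 7.41 CPM (SD, n = 3). CGP37157 replicate 1, with 19.1 CPM, came close to control replicate 3, with 21.6 CPM, but the groups did not overlap. The log2 fold change of lys-4 was -1.64 (SE 0.44), 3.12-fold lower, which was not called. With any 1 library left out, lys-4 was 2.53- to 5.22-fold lower. Of these fits it was called only without CGP37157 replicate 1, which gave the largest fold. The gene also spans a piRNA locus within an intron.

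lys-5 (IV:11624252-11625582, 2 exons) lies between them. It had 6, 22 and 18 counts in the control libraries and 1, 2 and 3 counts in the CGP37157 libraries, too few for the test. No CGP37157 library reached the lowest control library, 0.251 CPM. Summed over the libraries and scaled for depth, lys-5 was 8.93-fold lower in CGP37157-treated worms, from 46 against 6 counts (95% Clopper-Pearson interval of the ratio 3.81 to 25.6, counting error only). The same ratio for lys-6 was 11.7 (6.43 to 23.2), from 120 against 12 counts.

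**Figure D3:**
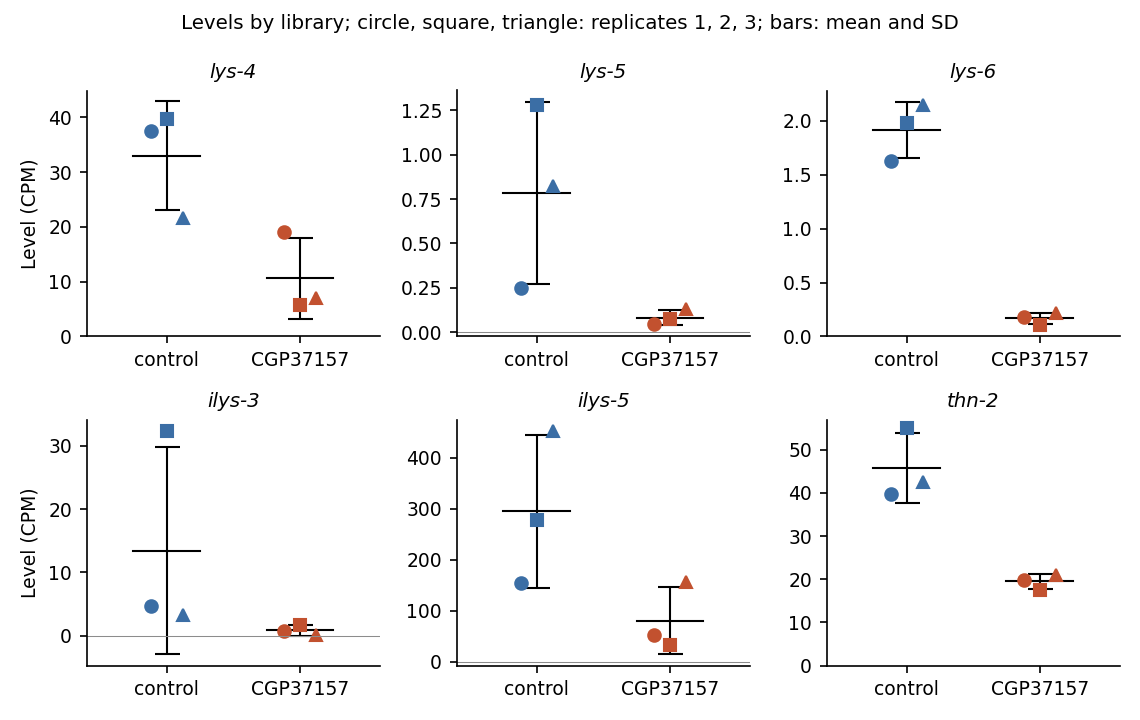
Levels in CPM on a linear axis of lys-4, lys-5, lys-6, ilys-3, ilys-5 and thn-2 by library (blue, control; red, CGP37157; circle, square and triangle, replicates 1, 2 and 3), with mean and SD of 3 libraries. The 6 genes were picked for their low values in treated worms, so the count without overlap supports nothing. For 5 of them every CGP37157 library lies below every control library, as for 3.69% of all genes tested. ilys-5 overlaps through CGP37157 replicate 3 at 156 CPM against control replicate 1 at 154 CPM.

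Fold changes of the genes next to this cluster lay closer to 0. Of the 3 protein-coding genes on either side, 5 were tested and 0 were called. Nearest on the far side of lys-6, F58B3.4 had a log2 fold change of 0.02 (SE 0.51). The other 4 were ragc-1, a Rag GTPase of the TOR pathway, at -0.08, Y24F12A.1 at 0.10, mars-1, a methionyl-tRNA synthetase, at -0.22, and F58B3.6 at 0.11. Each had an adjusted p of 1.00 by edgeR's quasi-likelihood test. dsl-5, which neighbours lys-4, had too few counts.

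**Figure D4:**
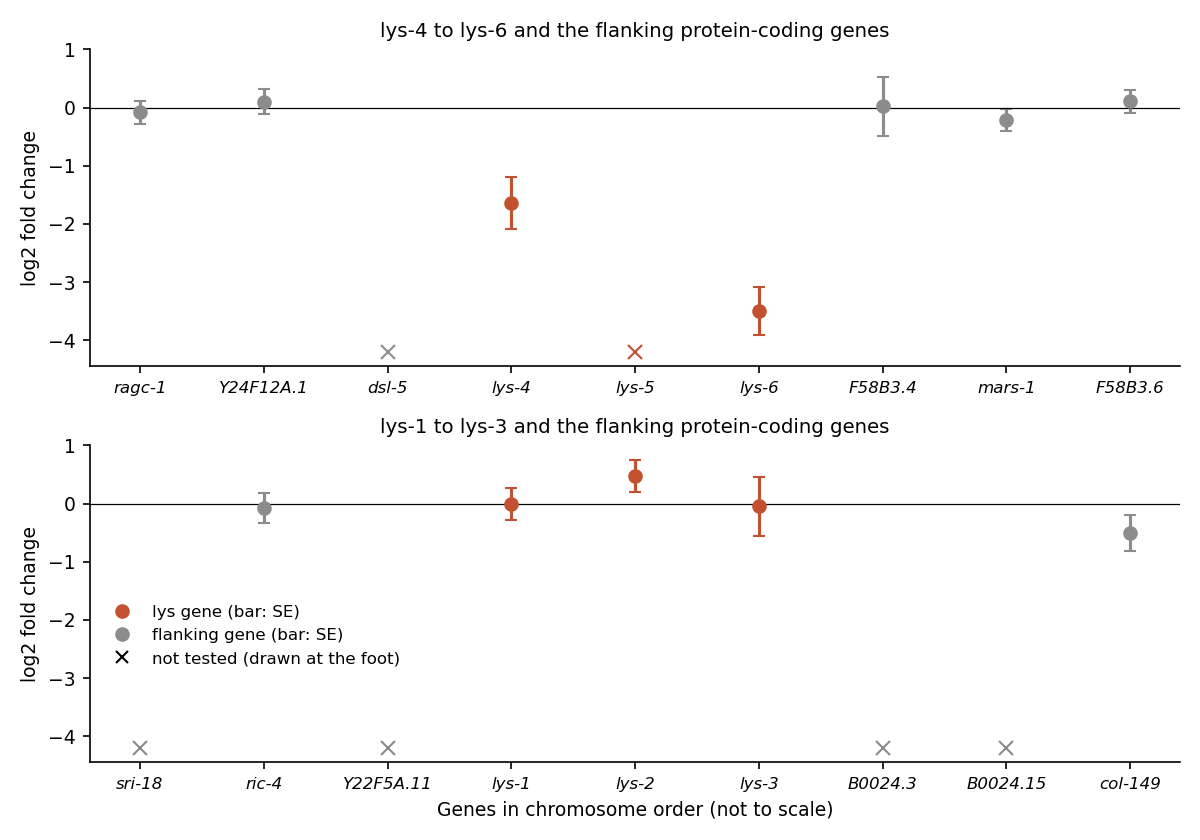
log2 fold change (CGP37157 minus control) with its SE for the genes of the lys-4 to lys-6 cluster (top) and of the lys-1 to lys-3 cluster (bottom) and for 3 protein-coding genes on either side, in chromosome order and not to scale. lys-4 at -1.64 and lys-6 at -3.50 sit below their tested neighbours, which lie between -0.22 and 0.11; crosses at the foot mark genes with too few counts.

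The other cluster, lys-1, lys-2 and lys-3, lies at V:10277904-10283544 (WBcel235) and spans 5.64 kb. lys-1 had 540, 975 and 562 CPM in the control libraries and 754, 681 and 630 CPM in the CGP37157 libraries, with control replicate 2 the highest of the 6. Its log2 fold change was -0.01 (95% interval -0.62 to 0.61). Without control replicate 2 it was 0.32, not called, and every CGP37157 library lay above the other control libraries. lys-2 had 287, 588 and 392 CPM in the control libraries and 559, 664 and 538 CPM in the CGP37157 libraries. It had the highest fold change of the tested members, 0.47 on the log2 scale (95% interval -0.15 to 1.10), 1.39-fold higher and not called, and its groups overlapped through control replicate 2. Without that library the groups did not overlap and the log2 fold change was 0.79, still not called.

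lys-3 was low in every library, with 23, 63 and 30 counts in the control libraries and 39, 73 and 30 counts in the CGP37157 libraries. In each group the sample with the most counts was replicate 2. The log2 fold change was -0.05 (95% interval -1.16 to 1.06), and without control replicate 2 it was 0.71. For this gene the data therefore limit a change in neither direction closely. In the control libraries, replicate 2 was the highest of the 3 for lys-1, lys-2 and lys-3 alike. The flanking genes that could be tested were ric-4, a SNAP-25 homologue of synapses, at -0.07 and col-149, a cuticle collagen, at -0.51, neither of them called.

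lys-7 (V:3481432-3482600) varied widely within both groups. It had 1230, 2127 and 2644 CPM in the control libraries and 2264, 1417 and 3004 CPM in the CGP37157 libraries. Both groups covered much the same range, and the log2 fold change was 0.16 (95% interval -0.66 to 0.97). lys-8 (II:5586178-5587651) was steadier, with 572, 658 and 640 CPM in the control libraries and 783, 452 and 584 CPM in the CGP37157 libraries. The treated libraries lay on both sides of the control ones, and the log2 fold change was -0.04 (95% interval -0.60 to 0.52). These intervals leave room for a change of lys-7 and lys-8 of less than 2-fold either way. An exon of lys-8 overlaps the gene C17G10.13 on the opposite strand by 38 bases.

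The last pair was hardly detected. lys-9 (I:12454853-12455826) had 0 counts in the 3 control libraries and 1, 2 and 0 counts in the CGP37157 libraries. Since a count of 0 allows up to 3 counts, no fold is given for it. lys-10 (IV:8332826-8333518) had 0, 12 and 3 counts in the control libraries and 1, 2 and 3 counts in the CGP37157 libraries. The scaled ratio of control to treated was 2.91 (95% Clopper-Pearson interval 1.07 to 9.16, counting error only), but it rested on control replicate 2. Without that library, 3 control counts stood against 6 treated ones and the ratio of treated to control was 1.25.

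**Figure D5:**
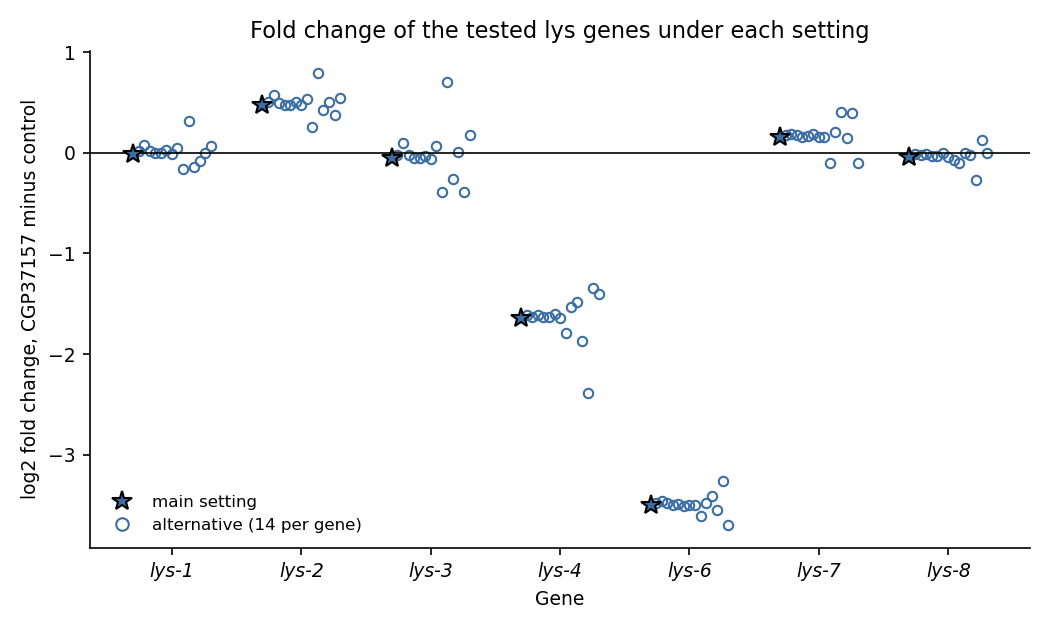
log2 fold change (CGP37157 minus control) of the 7 tested lys genes under the main setting (stars) and 14 alternatives (circles), which include leaving out each library. The circles of lys-6 lie between -3.70 and -3.26 and those of lys-4 between -2.38 and -1.34, while those of lys-1, lys-3, lys-7 and lys-8 lie on both sides of 0.

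The genes whose pattern was most like that of lys-6 over the 6 libraries were Y47H9C.1 (Pearson r = 0.998 on log2 CPM), oac-20, which encodes a putative O-acyltransferase (r = 0.991), and acs-3, an acyl-CoA synthetase (r = 0.987). Likeness was taken over all 6 libraries, so it includes the difference between the groups that all share. How far it rests on that difference was not tested, and 21 genes had r over 0.95. Their log2 fold changes were -1.16 for Y47H9C.1, -2.20 for oac-20 and -1.60 for acs-3. Each of these values was nearer 0 than that of lys-6, and oac-20 and acs-3 were called.

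Lower values in treated worms were also seen in the invertebrate-type family, with more spread between libraries. It held 0.0190%, 0.0266% and 0.0480% of the counts in the control libraries and 0.00587%, 0.00472% and 0.0160% in the CGP37157 libraries. The groups did not overlap, but narrowly. The summed level was at most 163 CPM in CGP37157 libraries and at least 169 CPM in control ones. Most of these counts were of ilys-5, whose own groups overlapped. Of its 6 genes 3 were tested, 0 were called lower and 0 were called higher, and 2 had an unadjusted p under 0.05 by edgeR's quasi-likelihood test, beside 4.79% of all genes tested. ilys-3, known for breaking down bacteria in the pharynx and the intestine, had 113, 557 and 71 counts in the control libraries and 16, 47 and 2 counts in the CGP37157 libraries. It was 15.6-fold lower (log2 fold change -3.96, SE 0.99, adjusted p = 0.135). All 3 control libraries reached 1 CPM but only 1 CGP37157 library did. ilys-3 thus passed the filter only through the control libraries, so its p-values and its place in the share above support nothing. Control replicate 2 decided the size, since without it ilys-3 was 4.64-fold lower. Without CGP37157 replicate 2 it was 33.6-fold lower, and without control replicate 1 it was called (adjusted p = 0.0337).

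ilys-5 was the most abundant ilys gene, with 3685, 4781 and 9928 counts in the control libraries and 1213, 876 and 3643 counts in the CGP37157 libraries. It was 3.67-fold lower (log2 fold change -1.88, SE 0.56, adjusted p = 0.296 by edgeR's quasi-likelihood test). With any 1 library left out, ilys-5 was 2.69- to 6.82-fold lower. Of these fits it was called only without CGP37157 replicate 3, which gave the largest fold. ilys-4 had 9.07, 8.13 and 6.07 CPM in the control libraries and 6.96, 8.15 and 6.37 CPM in the CGP37157 libraries, which overlapped (log2 fold change -0.12, 95% interval -0.67 to 0.44). ilys-2 was not tested: its 190 control counts stood against 37 treated ones, but 158 of them were in control replicate 2, and without it the scaled ratio fell from 5.98 to 1.39. ilys-1 had 2 control and 7 treated counts, and ilys-6 had none.

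Genes for other antimicrobial effectors, the antibacterial factors (abf), caenacins (cnc) and thaumatin-like proteins (thn), were taken by their name prefixes. Of 22 matched genes 12 were tested, 2 were called lower and 0 were called higher, beside 0.234% and 1.16% of all genes tested. Their median log2 fold change was -0.33, and 11 of the 12 values were below 0, against 52.6% of all genes tested. The list was chosen with earlier results of these data known, so nothing is read from these shares. thn-2 had 949, 947 and 932 counts in the control libraries and 452, 482 and 490 counts in the CGP37157 libraries. It fell 2.35-fold (log2 fold change -1.23, SE 0.21, adjusted p = 0.0154 by edgeR's quasi-likelihood test). cnc-6 had 22, 43 and 69 counts in the control libraries and 12, 7 and 3 counts in the CGP37157 libraries, and was 7.11-fold lower (log2 fold change -2.83, SE 0.59, adjusted p = 0.0476 by the same test). Like lys-6, cnc-6 passed the filter only through the control libraries, with 3 of them at 1 CPM against 0 of the CGP37157 libraries, so its call is no support for a change of the list. Neither call was steady. The adjusted p of thn-2 was 0.0972, 0.105 and 0.0745 without CGP37157 replicate 1, 2 and 3, and that of cnc-6 ran from 0.00439 to 0.236 over the libraries left out, under 0.05 only without control replicate 1. Named after their values were seen, cnc-4 (log2 fold change -1.22, adjusted p = 0.214) and thn-1 (-1.58, adjusted p = 0.291) also had every CGP37157 library below every control library, as did 3.69% of all genes tested, and cnc-4 was called without control replicate 1 (adjusted p = 0.00803).

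Genes of pathways known to act on the expression of immune effectors came next. These were 18 genes of the DBL-1/TGF-beta pathway, the PMK-1 p38 cascade, insulin signalling, intestinal transcription factors and others (bar-1 and fshr-1). All 18 were tested and 0 were called, and 1 of the 18 (elt-7) had an unadjusted p under 0.05 by edgeR's quasi-likelihood test, a share close to the 4.79% of all genes tested. Their log2 fold changes ran from -0.32 for sma-4, a Smad of the DBL-1 pathway, to 0.51 for elt-7, an intestinal GATA factor (adjusted p = 1.00 for both). The transcripts of daf-16, which encodes DAF-16/FOXO, and of pmk-1, which encodes the kinase PMK-1, were at 0.03 and -0.01. Transcript levels do not measure the activity of these pathways, which was not tested.

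Summed levels of tissue markers overlapped between the groups. The 7 intestinal marker genes matched summed to 3781 to 7169 CPM in the control libraries and 4364 to 7037 CPM in the CGP37157 libraries, and 0 of the 7 were called. Of their log2 fold changes 6 were above 0 and 1 below, while 52.6% of all genes tested were below. The highest was that of ges-1, an intestinal esterase (0.49 on the log2 scale, adjusted p = 1.00 by edgeR's quasi-likelihood test). Every CGP37157 library lay above every control library for ges-1, as for 3.85% of all genes tested. For the pharynx, 5 of 6 marker genes were tested and 0 were called. Its sums were 159 to 289 CPM in the control libraries and 137 to 192 CPM in the CGP37157 libraries, and 4 of the 5 log2 fold changes were below 0. The 5 markers of body-wall muscle and the 5 of neurons were all below 0, with medians of -0.39 and -0.10, and 0 were called. Markers of germline and embryo had 4 of 8 log2 fold changes below 0, and those of hypodermis 1 of the 2 tested. For sperm 2 of the 2 tested were below 0 and for coelomocytes 2 of 3, and 0 were called in any of these lists. None of the markers in these lists was at 0 in all libraries. The part of tissue makeup in the low values of lys-4, lys-5 and lys-6 was not tested.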

How the data were processed

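Polyadenylated RNA from whole N2 worms was sequenced in 6 libraries (stranded mRNA libraries, paired-end reads). The authors deposited raw counts per gene, which were used here as deposited and were identical in both tables. The submitters' processing notes name HISAT2, featureCounts, DESeq2, edgeR and DESeq. Versions, the genome build, the strand setting and the handling of reads that match several genes are not given in the sources used here, so values of similar family members carry that uncertainty. The tables also hold 12 columns of scaled counts per sample, group means, and the authors' own fold changes and p-values from DESeq2 and edgeR. None of these was used.

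Symbols and positions came from Ensembl release 115 (WBcel235), which located 46817 of 46904 identifiers. Genes with at least 1 CPM in 3 of 6 libraries were tested with edgeR 4.0.16 (R 4.3.3; TMM, quasi-likelihood test, condition as the only term) and Benjamini-Hochberg adjustment at 0.05. SE was the absolute log2 fold change over the square root of F. Ratios of summed counts have Clopper-Pearson intervals at the 95% level, which cover counting error only. The code was tested on simulated data. The members and lists were chosen with earlier results of these data known. Besides the lys and ilys genes, the genes named from a list were those called and the highest and lowest fold change. Values of cnc-4, thn-1, daf-16 and pmk-1 were given outside this rule. Of the 8 listed intestinal markers 7 matched. Same-numbered libraries share a suffix of unstated meaning in their labels and were not treated as pairs. Alternatives were other scalings, filters and tests (DESeq2 1.42.0, edgeR's likelihood ratio test), a replicate block, and leaving out each library. For the effectors and regulators they were added after seeing the data.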

Additional observations from a re-analysis of the deposited data

How the results depend on the processing

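Values of the lys genes under the 14 alternatives are a description, since the family was chosen on this contrast and lys-6 passed the filter only through the control libraries. Their log2 fold changes ran from -3.70 to -3.26 for lys-6 and from -2.38 to -1.34 for lys-4. The count of lys genes called lower was 3 without a filter on low counts (lys-4, lys-5 and lys-6) and 3 by DESeq2, 2 by edgeR's likelihood ratio test, and 1 to 2 when 1 library was left out. For the ilys genes the corresponding counts were 3 without a filter, 2 with the likelihood ratio test, 1 with the replicate block (ilys-3) and 0 to 1 with a library left out. Like lys-6, ilys-3 passed the main filter only through the control libraries. For the other effectors they were 1 with DESeq2's size factors, 1 with library sizes only, 4 without a filter, 4 with DESeq2, 3 with the likelihood ratio test, 0 with the replicate block and 0 to 3 with a library left out. Over all genes, 29 were called lower, against 17 with library sizes only, 66 without a filter, 63 by DESeq2, 66 by the likelihood ratio test, 20 with the replicate block and 12 to 34 with a library left out. The cause of these shifts was not tested. Genes near no change moved across 0. The log2 fold change of lys-1 was 0.0190 with DESeq2's size factors, 0.0773 under library sizes only, 0.0176 without a filter, 0.0252 by DESeq2 and 0.0431 with the replicate block, and that of lys-3 came to 0.10 under library sizes only and 0.0628 with the block. With a library left out, lys-1 ran from -0.16 to 0.32, lys-3 from -0.39 to 0.71, lys-7 from -0.10 to 0.41, lys-8 from -0.27 to 0.13, ilys-4 from -0.27 to 0.0150 and abf-2 from -0.22 to 0.49. The deviations of same-numbered libraries correlated at 0.105, -0.508 and 0.387, which does not show that the numbers pair them. The labels also give same-numbered libraries a shared suffix, whose meaning they do not state, so a shared day or batch is possible. With the replicate block the adjusted p was 0.0127 for ilys-3, 0.115 for thn-2 and 0.281 for cnc-6, and ilys-5 was lower in the CGP37157 library than in the control library of the same number for all 3 numbers. Depth limits lys-5, lys-9 and lys-10, which had at most 22 counts in any library.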
